A study of Homo sapiens with 4 samples.

Results

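The control region is the long noncoding stretch of human mitochondrial DNA, and its transcripts were followed here in the heavy-strand file of a dimethyl sulfate (DMS) probing study. Members were all positions from 1 to 576 and from 16023 to 16500 in the files' numbering, 1054 of the 16500 positions that the file holds. They are 318 A, 352 C, 141 G and 243 T. The first segment runs up to TRNF, the phenylalanine tRNA gene that starts at 577, and the last segment begins after TRNP, the proline tRNA gene that ends at 16022. No gene of the RefSeq table for GRCh38.p14 lies between them on the circular molecule. The file ends at 16500, and 68 positions that follow are present in the light-strand file alone and were not part of the set. Past a placeholder base of the reference in the large rRNA gene, the files' numbers are lower by 1 than those of the reference.

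Mitochondria came from a human embryonic kidney line, HEK-293T in the protocol and HEK 293 in the sample labels, and were exposed to 1% DMS during 5 min at 37 °C. There are 2 wild-type libraries and 2 from LRPPRC knockout cells, described as biological replicates, and all 4 were treated with DMS. The labels do not say whether the knockout is 1 clone. LRPPRC is encoded in the nucleus, so its loss was not checked in these files, and an untreated library was not analysed here.

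DMS methylates A and C where their pairing face is free, and the reverse transcriptase TGIRT-III then writes a mismatch, so a mismatch fraction reports on accessibility at A and C. G and T serve as the background. The control region carries the promoters from which both strands are transcribed, the origin of heavy-strand replication and the D-loop, in which a short extra DNA strand, 7S DNA, is held on the duplex. Its conserved sequence blocks include CSB II, a run of C interrupted by T. LRPPRC is an RNA-binding protein of the mitochondrial matrix that, with its partner SLIRP, keeps mitochondrial mRNAs stable and polyadenylated. The study asks how mitochondrial transcripts are structured in the organelle and what differs without LRPPRC.

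The sequences that carry the main results are given as the heavy-strand file lists its bases, 5′ to 3′ on the strand the file reads, with no build named in the sources used here. The first pair are the windows with the largest falls at single positions in each segment, with capitals at A and C that fell by 1 log2 unit or more after centring.

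chrM:151-200: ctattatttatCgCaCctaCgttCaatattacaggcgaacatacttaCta

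chrM:16351-16400: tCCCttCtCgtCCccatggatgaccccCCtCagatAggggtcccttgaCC

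The next holds the A that rose most, in a capital, at 16115.

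chrM:16101-16150: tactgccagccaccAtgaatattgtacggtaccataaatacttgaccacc

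The last pair meet at position 400, near which the background at G and T drops, and capitals mark G and T with a wild-type mean of 1% or more.

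chrM:351-400: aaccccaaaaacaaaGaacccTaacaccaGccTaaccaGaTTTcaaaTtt

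chrM:401-450: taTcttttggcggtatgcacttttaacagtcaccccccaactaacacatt

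Of the 670 A and C positions, 27 had a mean fraction over the 4 libraries under 0.002 and 6 lay above 0.3, which left 637 tested, 307 A and 330 C. Each library listed 1 of the 670 at 0. The fractions come without read counts, so the depth is unknown and no counting interval could be given. Across the 637 positions, Pearson's r of log2 values was 0.930 for the wild-type pair of libraries and 0.921 for the knockout pair. Between groups it ranged from 0.667 to 0.703. Positions share their libraries, so these values describe the data and carry no p.

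The 6 positions above 0.3 were kept apart as variants. The A at 73 was mismatched in 96.6% and 96.8% of wild-type and in 93.3% and 92.6% of knockout reads, and the A at 263 in 93.5%, 93.9%, 92.0% and 92.4% in the same order. At 16398 the A read 96.1%, 96.4%, 90.7% and 91.0%. The C at 16191 had the lowest wild-type values of the 6, 78.4% and 74.9%, against 89.9% and 89.7% in the knockout. For the C at 16255 and at 16269 the values ran from 88.4% to 93.6% over the 4 libraries. All 6 were also high in the light-strand file, at 83.3% or more in every library except the pair of 263, which stood at 70.1% and 61.3% in wild type and at 52.3% and 51.7% in the knockout. Below the limit the next highest position was the T at 226, with 14.9% and 15.7% in wild type against 9.66% and 8.71% in the knockout, while its paired A in the light-strand file was between 1.33% and 1.59% in all 4 libraries.

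The mismatch fraction of the control region was lower without LRPPRC at A and C, and higher at G and T. Over the 637 tested positions the mean was 1.97% and 1.90% in the wild-type libraries and 0.989% in each knockout library, or 1.93% ± 0.0518 (SD, n = 2) and 0.989% ± 0.000385 (n = 2). The groups did not overlap, and the two-sided exact permutation p was 0.333, the smallest that 2 libraries against 2 allow. C positions had 2.11% ± 0.0796 and 0.933% ± 0.00133, and A positions had 1.74% ± 0.0220 and 1.05% ± 0.000636. C was thus the higher base in wild type and, over the whole region, the lower in the knockout. With positions under the minimum included, knockout means at C and A were 0.964% and 1.26% in the last segment. In the first segment they were 0.829% and 0.821%, so C was not the lower base there. The last segment had 2.47% ± 0.0313 and 1.12% ± 0.00630, and the first 1.46% ± 0.0700 and 0.874% ± 0.00485. At the background bases the order of the groups was opposite, with 0.941% ± 0.00967 and 1.34% ± 0.0432 at G and 1.35% ± 0.0540 and 1.76% ± 0.0287 at T (n = 2 each).

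The base pattern set the control region apart from the coding RNAs of the same file. The mean of A and C divided by that of G and T gave a ratio of 1.61 and 1.49 in wild type against 0.604 and 0.586 in the knockout. In the 12 heavy-strand mRNAs it was 4.29 ± 0.108 and 2.73 ± 0.0393 (n = 2 each), and in the 2 rRNAs 6.28 ± 0.384 and 5.62 ± 0.0693. In the knockout, the bases that DMS modifies carried fewer mismatches than the background bases, so there the values go against the base pattern that the strand named for the file implies. On the log2 scale and within a library, the A and C mean of the control region lay 0.99 below that of the mRNAs in wild type and 1.31 below it in the knockout, a difference of -0.31. Against the rRNAs it was 0.27 above in wild type and 0.16 below in the knockout, a difference of -0.43. Both differences had groups that did not overlap and an exact permutation p of 0.333. Their size was uneven. Against the mRNAs it was -0.58 in the last segment alone and -0.08 in the first, and -0.09 for the region with a pseudocount of 0.01. Against the rRNAs it was -0.69 for C alone and -0.16 for A alone.

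**Figure D1:**
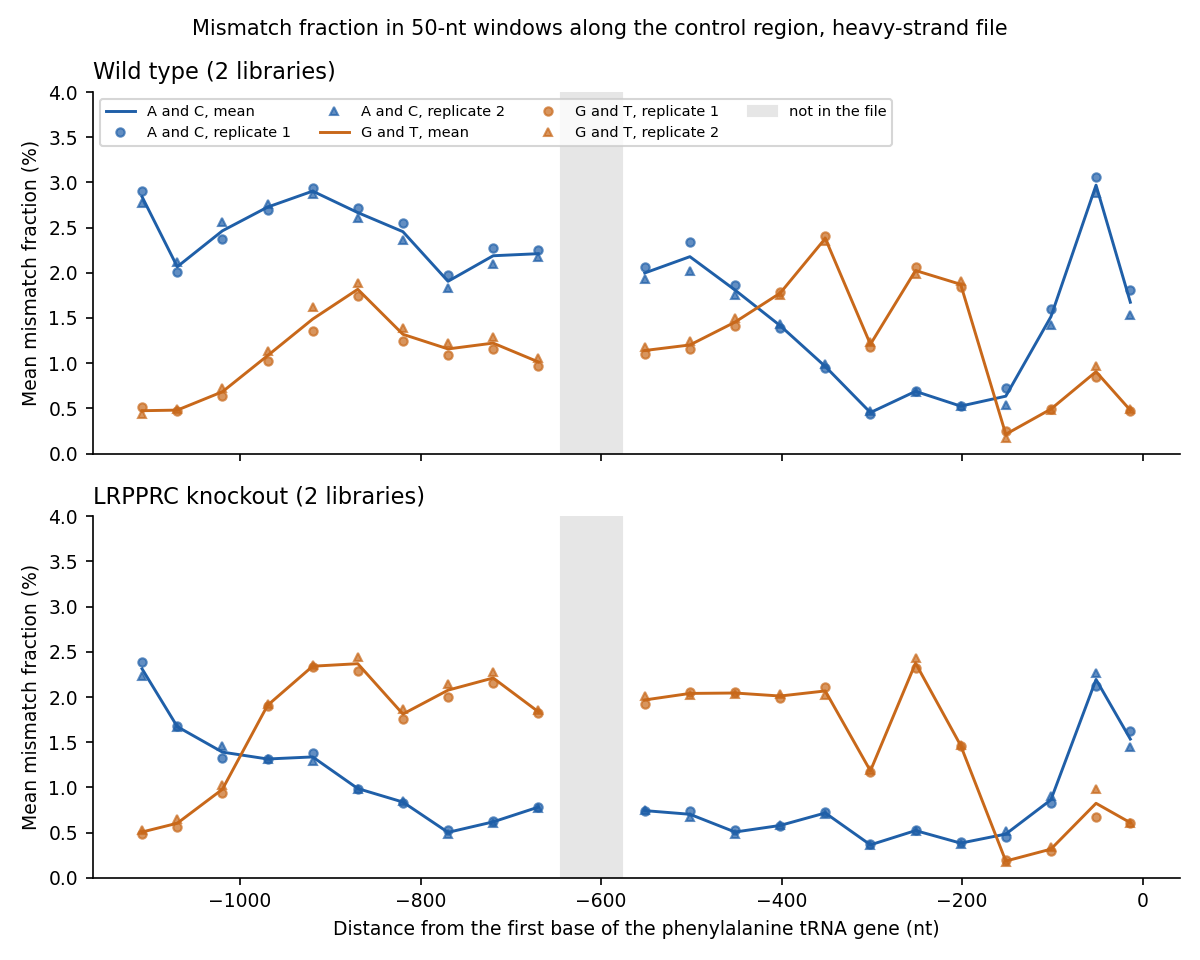
Mean mismatch fraction (%) in 50-nt windows against the distance in nt from the first base of the phenylalanine tRNA gene, for A and C (blue) and for G and T (orange), in wild type (top) and LRPPRC knockout (bottom). Points are single libraries and lines their means. In wild type the orange line lies above the blue one in 5 windows, in the knockout in 15, and the orange line drops near -176 nt in both.

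Along the region, the knockout was divided into 4 stretches, which are described without a test. Their borders were set at the windows where the order of the bases changed, and at the break between 16500 and 1. At that break the order stayed the same. Next to TRNP, from 16023 to 16150, A and C stayed above G and T in both genotypes, with means of 2.33% ± 0.0790 against 0.547% ± 0.00534 in wild type and 1.63% ± 0.0274 against 0.699% ± 0.0506 in the knockout. From 16151 to 16500 the wild-type order was the same, 2.48% ± 0.0660 against 1.24% ± 0.0972, and the knockout order the reverse, 0.945% ± 0.0167 against 2.04% ± 0.0632. From 1 to 400 G and T were higher in both genotypes, at 1.61% ± 0.0210 against 1.13% ± 0.0262 in wild type and 1.95% ± 0.00360 against 0.542% ± 0.0110 in the knockout. From 401 to 576, which leads into TRNF and holds the heavy-strand promoter, A and C were again above, 1.81% ± 0.139 against 0.439% ± 0.0125 in wild type and 1.33% ± 0.0333 against 0.360% ± 0.0502 in the knockout (n = 2 throughout).

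Wild type was not uniform within the stretch from 1 to 400. Its first 3 windows, up to 150, had A and C above G and T, and the 5 windows from 151 to 400 had them below in both wild-type libraries. The window from 201 to 250 had 0.941% and 0.986% at A and C in wild type against 0.729% and 0.707% in the knockout, while G and T stood at 2.41%, 2.35%, 2.11% and 2.03%. In the knockout the reversed order reached from 16151 through the origin of the numbering to 400, which is 15 of the 22 windows in each library. Both knockout ratios lay below both wild-type ratios in 20 of the 22 windows, a count with no share over the file beside it. By limma, A and C minus G and T was lower in 88.4% of 311 windows of the file. The G and T mean of the window from 551 to 576 rests on 1 position.

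The background dropped between adjacent windows at position 400, in every library. In the window from 351 to 400, which is next to the light-strand promoter, G and T had means of 1.84% and 1.91% in wild type against 1.46% and 1.47% in the knockout. In the window from 401 to 450 they had 0.254% and 0.172%, and 0.192% and 0.179%. Of the G and T in the window before the border 9 of 11 had a wild-type mean of 1% or more, and after it 1 of 22, the T at 403. The capitals in the pair of sequences that meet there show this. A and C did not step in the same way, with wild-type means of 0.525% ± 0.00109 before and 0.635% ± 0.131 after.

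Window by window, limma called 21 of 22 windows after centring on the library median, 9 higher and 12 lower in the knockout, where 88.0% of the 332 windows of the file were called, 60.5% higher and 27.4% lower. Centring removes a shift of the library medians of -0.63 (log2, knockout minus wild type). Without it 20 windows were lower and 0 higher, also 0 at an unadjusted p under 0.05, against 92.5% called over all windows, 90.4% lower and 2.11% higher. The centred change was 0.38 (SE 0.03, limma adjusted p 5.36e-05) in the window from 16023 to 16050 and 0.40 in the next, and it was lower in each window after that down to -1.05 (SE 0.06, adjusted p 1.03e-05) from 16401 to 16450. In the windows from 16301 through the origin to 150 the centred change ranged from -1.05 to -0.75. From 201 to 450 the 5 windows were between 0.22 and 0.43 after centring, and between -0.41 and -0.20 without it. The window from 451 to 500 was not called, at -0.08 (SE 0.09, adjusted p 0.399), and was lower without centring, at -0.71. The last one, from 551 to 576, had the highest centred value of the 22, 0.58 (SE 0.08, adjusted p 0.000484), and -0.05 without centring, where it was not called (adjusted p 0.560).

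Set against its own background, the signal was lower in the knockout almost throughout. The log2 value of A and C minus that of G and T was called lower by limma in 19 of 21 windows and higher in 0, also at an unadjusted p under 0.05, where 89.4% of 311 windows of the file were called, 88.4% lower and 0.965% higher. The size differed more than the count, with a median of -1.31 against -0.42 over the file. The lowest value was -2.46 (SE 0.10), from 16401 to 16450, and the windows from 16151 to 150 lay between that and -1.74. From 201 to 550 the windows lay between -0.38 and -0.07, and those from 351 to 400 and from 401 to 450 were not called. Both sides entered this difference without centring, so the shift of the A and C library medians of -0.63 is part of it. The fit took 1 common spread for all windows along the trend, so its p-values rest on the file as a whole and not on the 2 libraries of a window.

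**Figure D2:**
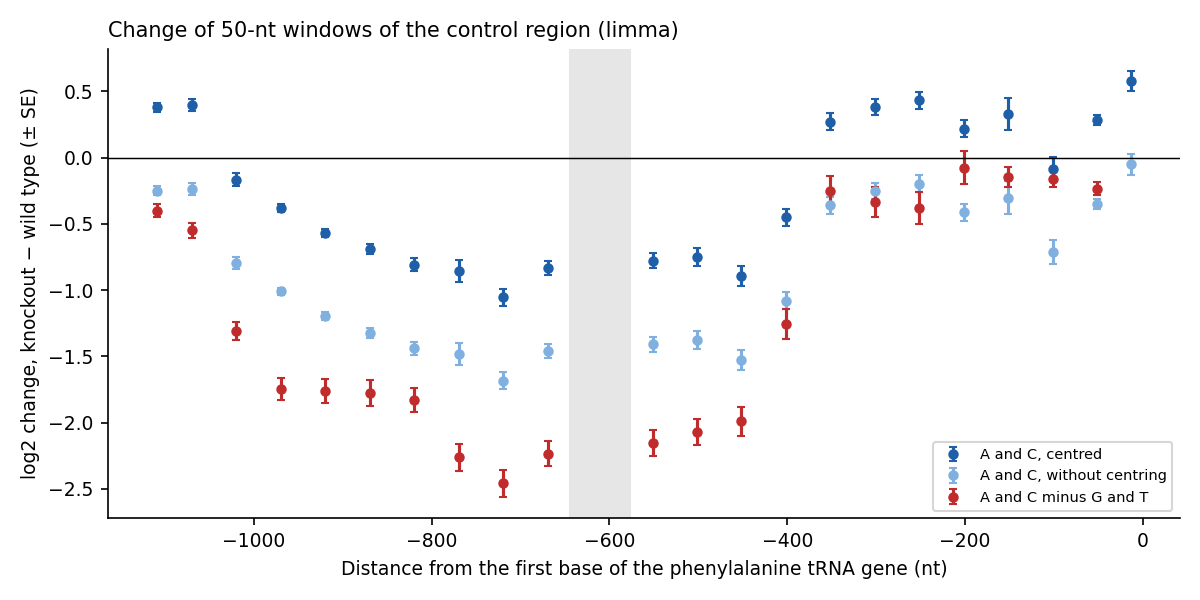
Change of each 50-nt window (log2, knockout minus wild type, with the limma SE as bar) against the distance in nt from the tRNA gene. Dark blue is A and C after centring, light blue the same without centring, and red A and C minus G and T. The 3 series lie below 0 together from about -1020 to -400 nt, and the red points come within 0.38 of 0 from -350 nt on.

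At single positions, limma called 363 of 637 A and C positions after centring (57.0%), where 71.5% of the 9910 positions of the file were called. Of these 119 were higher (18.7%, file 44.9%) and 244 lower (38.3%, file 26.6%), and the median change was -0.14 against 0.13 over the file. Without centring 434 were called (file 83.0%), of which 9 were higher (file 4.73%) and 425 lower (file 78.3%), with a median of -0.77 against -0.50. The groups did not overlap at 504 of the 637 (79.1%, file 92.1%). Falls of 1 log2 unit or more after centring were called at 113 positions, where 3.87% of the file's positions had one. Rises of that size were called at 12, against 3.65% of the file. The count of higher positions depended on the treatment of low values, with 219 at a pseudocount of 0.01 and 59 with a minimum mean fraction of 0.01.

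The calls were unevenly spread, and each count is read against the file, where 44.9% of A and C positions were higher, 26.6% lower and 3.87% lower by 1 or more after centring. From 16151 to 16500 limma called 165 of 227 positions lower (72.7%) and 10 higher (4.41%), and 76 were lower by 1 or more (33.5%). From 1 to 400, 59 of 212 were lower (27.8%), a share close to that of the file, and 48 higher (22.6%), but 35 were lower by 1 or more (16.5%). From 16023 to 16150, 29 of 72 were higher (40.3%) and 13 lower (18.1%), a split near that of the file. From 401 to 576, 32 of 126 were higher (25.4%) and 7 lower (5.56%), both below the file. Without centring the lower calls were 48 of 72 (66.7%) and 49 of 126 (38.9%) in these last 2 stretches, where the file had 78.3%, and 2 positions were higher in each.

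Falls were called at a larger share of C than of A, as they were over the whole file. Centring used the same library median for both bases, and with each base fitted alone 135 C and 101 A were lower. After joint centring 159 of 330 C were lower (48.2%) and 41 higher (12.4%), against 39.8% lower and 32.8% higher over all C of the file. Of 307 A, 85 were lower (27.7%) and 78 higher (25.4%), against 13.2% and 57.2%. Falls of 1 or more were called at 94 C and 19 A, where the file had 6.20% of its C and 1.52% of its A. In the last segment 114 of 153 C were lower, with a median of -0.93, and 64 of 146 A, with a median of -0.29.

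**Figure D3:**
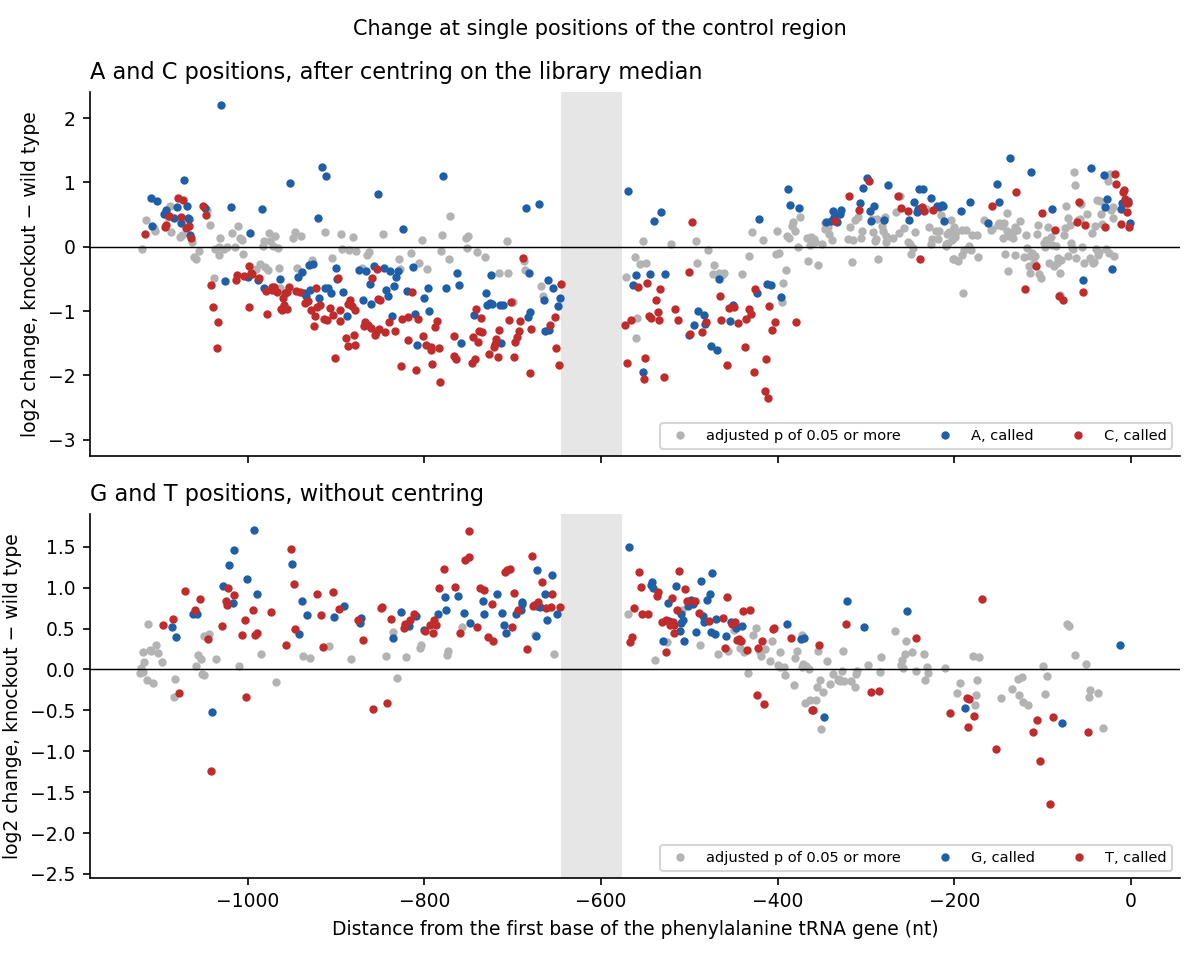
Change at single positions (log2, knockout minus wild type) against the distance in nt from the tRNA gene: A and C after centring (top), G and T without centring (bottom). Coloured points passed an adjusted p of 0.05 in limma and grey ones did not. Called C lie mostly below 0 from about -1000 to -380 nt, over the same stretch where called G and T lie mostly above 0.

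The 10 largest called falls after centring were 9 C and 1 A, at 166, 162, 16363, 26, 48, 16464, 25, 150, 16336 and 16319. Their wild-type means ran from 2.84% to 5.16% and their knockout means from 0.274% to 0.690%. A position low in wild type could hardly enter this list, since the pseudocount makes changes at low positions look smaller. The C at 166, a capital in the first sequence above, had 3.08% and 2.61% in wild type against 0.233% and 0.315% in the knockout. Its paired G in the light-strand file stood at 0.223%, 0.242%, 0.260% and 0.210%, and the knockout values of the C lay at that level. A pair in the light-strand file exists for 7 of the 10, and its means were 0.233% to 0.401% in wild type and 0.219% to 0.412% in the knockout. The C at 26 had 4.57% and 4.15% in wild type against 0.633% and 0.557% in the knockout, a change of -2.05 (SE 0.08, limma adjusted p 0.000189), and the A at 25 beside it had 3.57%, 3.03%, 0.649% and 0.332%. Neither has a counterpart in the light-strand file.

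Among called positions whose groups did not overlap, the 10 largest rises were all A. They were at 16115, 440, 16229, 532, 464, 546, 16366, 16234, 278 and 16073. With overlap allowed, rises of 1 log2 unit or more were called at 10 A and 2 C. Most of the 10 named rises were small in absolute terms, and 7 of them also passed without centring, the exceptions being 464, 546 and 278. The A at 16115 stood apart, with 1.77% and 2.04% in wild type against 4.94% and 6.95% in the knockout. Its change was 2.21 (SE 0.18, limma adjusted p 0.000686) after centring and 1.58 without, while the paired T in the light-strand file lay between 0.949% and 1.14% in all 4 libraries. It sits among positions that were lower without centring, in a window with a change of -0.80 on that scale. The A at 16229 had 3.72% and 4.11% in wild type against 6.53% and 5.56% in the knockout, a change of 1.24 (SE 0.09, adjusted p 0.000581) or 0.61 without centring. Close by, the A at 16234 had 2.40%, 2.96%, 4.12% and 3.38%. The rule for naming these positions asked for groups that do not overlap, so their order is no result.

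**Figure D4:**
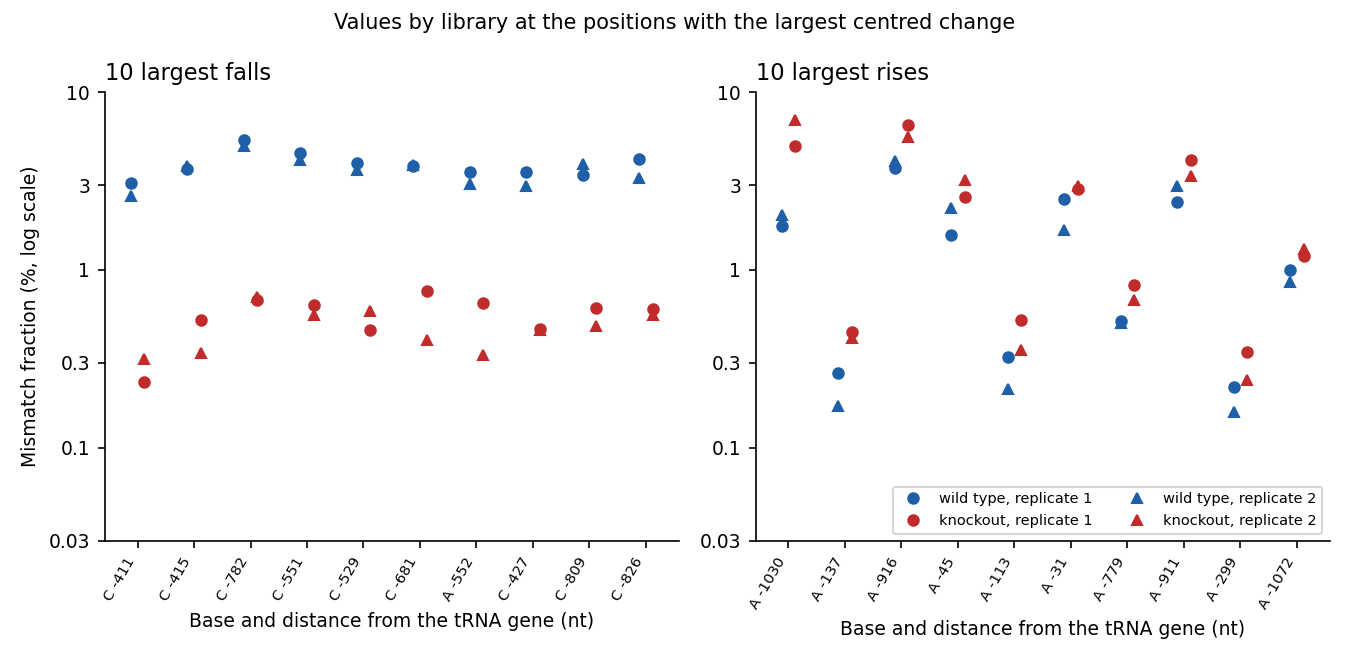
Mismatch fraction (%, log scale) in each library at the 10 positions with the largest centred fall (left) and rise (right), labelled by base and by distance in nt from the tRNA gene. Wild type is blue, knockout red, and circles and triangles are replicates 1 and 2. The positions were chosen for groups that do not overlap, so their separation is no result. At the falls wild type has 2.61% or more and the knockout 0.763% or less. Among the rises the A at -1030 nt, which is 16115, is the one furthest from its wild-type values.

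Of the 10 highest single A and C positions in wild type, 4 were between 16023 and 16150 and 3 between 501 and 550. Window means did not all follow this. In wild type they were 2.84% from 16023 to 16050 and 2.07% from 16051 to 16100, but 2.90% from 16201 to 16250. Next to TRNF, from 551 to 576, the mean was 1.67%. In the window from 501 to 550, the highest of all in wild type with means of 3.06% and 2.88% (knockout 2.12% and 2.27%), capitals mark A and C with a wild-type mean of 3% or more.

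chrM:501-550: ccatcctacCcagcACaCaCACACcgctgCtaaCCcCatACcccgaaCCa

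Most of these fall on an alternating A and C repeat or on the bases after it, and 1 C lies before it. The C at 522 had 6.85% and 6.52% in wild type against 3.13% and 2.14% in the knockout, a change of -0.70 (SE 0.18, limma adjusted p 0.0223) after centring. At the other end, the C at 16078 had 6.92%, 7.23%, 6.07% and 5.34%, and the C at 16029 had 6.98%, 7.02%, 5.27% and 5.06%. The A at 108 had 5.29% and 5.74% in wild type against 1.08% and 1.11% in the knockout, a change of -1.60 (SE 0.05, adjusted p 0.000132).

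The highest of all, the C at 338, stood far above its window. It had 7.14% and 7.41% in wild type against 4.01% and 4.15% in the knockout, where the window from 301 to 350 had A and C means of 0.688% ± 0.00678 and 0.523% ± 0.00538. Its paired G in the light-strand file was higher still and differed in the same direction, with 9.77% and 9.78% in wild type against 5.36% and 5.69% in the knockout. Among the tested A and C positions, 1 had a mean of 3% or more in both files, and it was this C, whereas 11 G or T positions met that limit. The T at 310, between 2 runs of C, was among them with 6.94% and 6.35% in wild type against 9.14% and 9.34% in the knockout, but its pair was lower in the knockout, at 3.53% and 3.57% against 4.95% and 4.88%.

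Some runs of one base were among the least mismatched sites. The longest, 7 C from 303 to 309, is followed by the T at 310 and 5 C from 311 to 315, and they are shown in capitals.

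chrM:301-350: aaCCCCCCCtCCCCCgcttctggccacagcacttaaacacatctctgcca

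The 7 C had a mean of 0.247% ± 0.0469 in wild type against 0.188% ± 0.0178 in the knockout, and the 5 C 0.497% ± 0.100 and 0.414% ± 0.0291, differences within 2 SD of the wild-type replicates. Runs elsewhere were not all low. The 5 C from 16183 to 16187 had 2.30% and 2.27% in wild type against 0.683% and 0.809% in the knockout, and the 6 C from 16374 to 16379 had 0.994%, 0.966%, 0.260% and 0.256%. The 5 C from 494 to 498 had 2.06% ± 0.471 and 0.942% ± 0.101. The 6 C from 568 to 573 overlapped between groups, with 1.27% and 1.09% in wild type against 1.23% and 1.27% in the knockout. Of the other 4 runs, the 6 A from 286 to 291 had 0.741% ± 0.0916 and 0.521% ± 0.0589, the 5 A from 357 to 361 had 0.675% ± 0.0635 and 0.598% ± 0.0294, the 6 C from 433 to 438 had 0.443% ± 0.146 and 0.283% ± 0.0480, and the 5 A from 16161 to 16165 had 1.96% ± 0.235 and 1.10% ± 0.00735. Deletions in all 10 runs were at most 0.0490% in any library.

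Over much of the region the background bases moved in the opposite direction to A and C. Both knockout G and T means lay above both wild-type means in 15 of the 22 windows, a count with no share over the file beside it. They lay below in those from 201 to 250, from 351 to 400 and from 451 to 500. Without centring, limma called 225 of 359 tested G and T positions, against 54.4% of 5456 positions of the file. Of these 198 were higher in the knockout (file 29.8%) and 27 lower (file 24.6%), and the median change was 0.43 against 0.03. After centring 175 were called (file 56.3%), 152 higher (file 26.6%) and 23 lower (file 29.6%). Leaving out wild-type replicate 1 took the 27 lower calls to 16. From 16151 to 16500, where most falls at A and C lay, 95 of 114 were higher (83.3%) and 2 lower, with a median of 0.68, and from 1 to 400, 79 of 164 were higher (48.2%) and 13 lower. Near the tRNA genes 22 of 50 were higher (44.0%) and 4 lower from 16023 to 16150, and 2 of 31 higher (6.45%) and 8 lower (25.8%) from 401 to 576. The T at 74, next to the variant at 73, had 3.88% and 4.95% in wild type against 8.03% and 7.78% in the knockout.

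The G and T fractions were then set beside the light-strand file, where the paired base is an A or C that DMS can modify. The least-squares slope of the heavy-strand G and T fraction on that of the paired base, over 349 pairs, was 25.1% and 30.0% in wild type against 59.6% and 60.5% in the knockout, a difference of 32.5 percentage points (exact permutation p 0.333). Over the heavy-strand mRNAs the slope was 23.1% ± 0.612 and 21.8% ± 0.0314, and over the rRNAs 49.0% ± 6.28 and 12.6% ± 2.31. Within the control region it was 34.9% ± 3.05 and 72.7% ± 2.98 from 16151 to 16500 and 51.0% ± 4.25 and 80.1% ± 1.79 from 69, the first position with a pair, to 400. From 16023 to 16150 it was 4.82% and 5.66% in wild type against 14.9% and 17.1% in the knockout. It was near 0 from 401 to 576 in both groups, at 0.0392% ± 1.56 and -0.765% ± 6.14. The pairs share libraries and positions, so a slope describes the files and no value was tested across positions.

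The levels showed the same order. Pairs begin at position 69, so the first stretch is covered from there to 400, by 131 of its 166 G and T and 199 of its 232 A and C. Over these the mean at heavy-strand G and T was 0.857 ± 0.0130 of that at the paired light-strand bases in wild type and 1.02 ± 0.00815 in the knockout. From 16151 to 16500 the ratio was 0.461 ± 0.0372 and 0.823 ± 0.0243. From 401 to 576 it was 0.205 ± 0.0194 and 0.190 ± 0.0194. Heavy-strand A and C, in turn, stood 2.01 ± 0.00920 times above their paired light-strand G and T from 69 to 400 in wild type and 1.14 ± 0.0426 times in the knockout. The knockout value of 1.02 is a mean over windows that differed, from 0.617 in the window from 351 to 400 to 1.52 in that from 201 to 250. The light-strand file itself differed little over the whole control region, with 2.30% ± 0.0321 and 2.11% ± 0.0107 at A and C and 0.542% ± 0.00740 and 0.497% ± 0.00300 at G and T. Whether reads of the other strand entered the heavy-strand file, and how much RNA of each strand was present, was not tested, since the files give neither strand assignments per read nor counts.

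**Figure D5:**
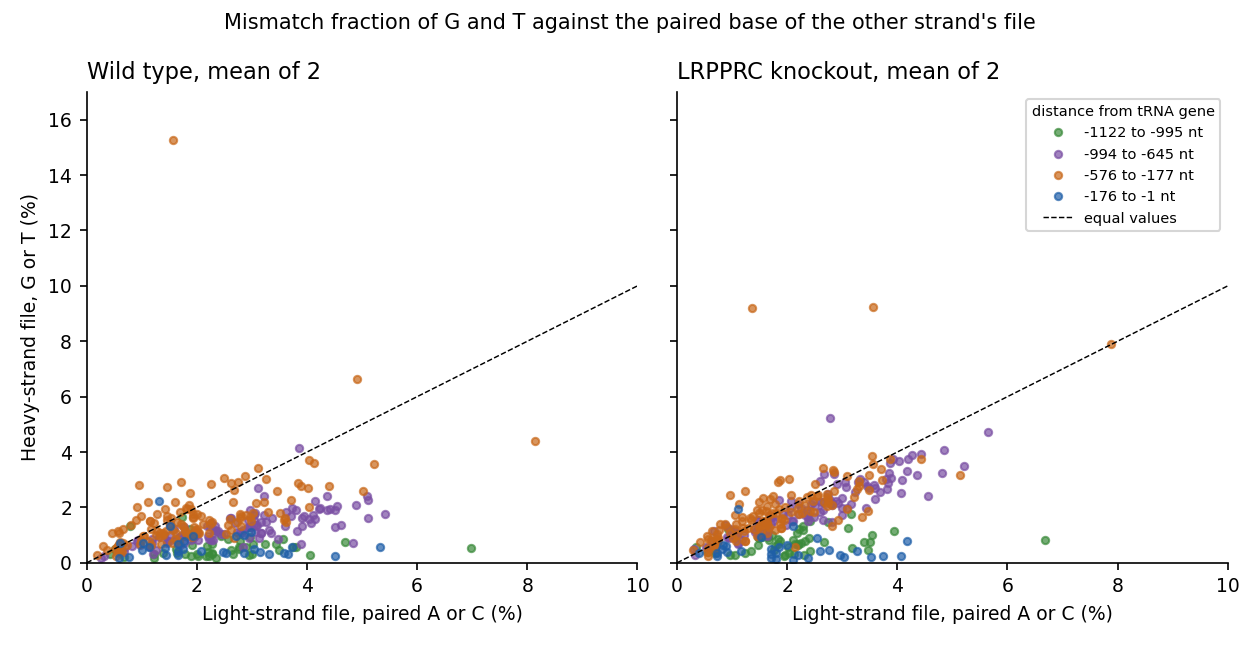
Mismatch fraction (%) of each tested G or T in the heavy-strand file against that of its paired A or C in the light-strand file, mean of 2 libraries, in wild type (left) and knockout (right). Colours are the 4 stretches by distance in nt from the tRNA gene and the dashed line marks equal values. In the knockout most points from -994 to -177 nt lie close to the dashed line or somewhat below it, and most of those within 176 nt of the tRNA gene lie well below it in both groups.

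Deletions gave a readout that the mismatches do not contain. Their mean over the region was 0.0956% and 0.0953% in wild type against 0.0646% and 0.0717% in the knockout (exact permutation p 0.333), beside 0.151% ± 0.00337 and 0.0986% ± 0.000305 in the mRNAs. Of the 1054 positions 247 had none, the median was 0.0192%, and 9 had a mean of 1% or more. The A at 191 and the T at 16492 had more deletions in the knockout, 2.32% and 2.49% against 1.10% and 1.11%, and 1.77% and 1.48% against 0.719% and 0.617%. The A at 16292 had fewer, 0.586% and 0.521% against 1.66% and 1.28%. The A at 538 had 2.18% and 2.90% in wild type against 1.72% and 1.16% in the knockout.

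Predicted pairing was compared last. RNAplfold gave each base an unpaired probability from the sequence alone, and Spearman's rho with the mismatch fraction over the 637 positions was 0.156 in wild type against 0.252 in the knockout. It was much higher next to TRNP, 0.711 and 0.651 over 72 positions from 16023 to 16150. From 16151 to 16500 it was 0.247 and 0.371 over 227 positions, from 1 to 400 it was -0.193 and 0.0719 over 212, and from 401 to 576 it was 0.130 and -0.0137 over 126. Of the 4 stretches, that from 16023 to 16150 had the highest rho in both genotypes. The centred change had a rho of 0.0776 with the unpaired probability and of -0.542 with the wild-type level, which enters the change itself. These are descriptions across neighbouring positions and carry no p.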

How the data were processed

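The authors deposited, per the file headers, fractions for each position and strand: mismatches, mismatches with deletions, and the base. Per the submitters' processing notes cutadapt and Bowtie2 were used; versions, settings, the build and strand assignment are not given in the sources used here. Depth is unknown. Positions, stretches and lists were chosen with earlier results of these data known.

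Values at A and C with a mean of 0.002 to 0.3 were taken as log2(fraction + 0.001), centred on each library's median over the file, and tested with limma 3.58.1 (R 4.3.3; trend, Benjamini-Hochberg, two-sided, threshold 0.05) over the whole heavy-strand file, for positions and for 50-nt windows with 8 or more tested positions. The pseudocount makes changes at low positions look smaller. G and T were fitted likewise without centring. Single values had exact permutation tests. Fractions of both strands were paired by position (sum 16569). Gene borders came from the RefSeq table, with numbers past the placeholder lowered by 1. Reading frames served as the check of that shift, found for 13 of 13 protein-coding genes with it and for 0 without. RNAplfold 2.7.2 used a window of 240, a span of 160 and flanks of 200 nt. Named positions were the 10 largest called rises and falls whose groups do not overlap, positions above 0.3, the 10 highest in wild type, every window and every run of 5 or more A or C; the G and T positions, the deletion sites and the position paired high in both files were chosen after their values were seen. The fit was tested on simulated data. Same-numbered replicates did not deviate together (correlation 0.0007 over the file, 0.0446 over the region), so no pairing was used.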

Additional observations from a re-analysis of the deposited data

How the results depend on the processing

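No result changed direction under the alternatives run, apart from the split of higher and lower that centring sets. Of the refitted summary values, 182 were counted as the same and 27 as moved. That count is coarse, since 445 called positions with a pseudocount of 0.01, against 363, were counted as the same. Values compared by exact permutation could not lose a call, because their p cannot fall below 0.333, so for them it shows direction alone. With a pseudocount of 0.01 the A and C difference from the mRNAs was -0.09 instead of -0.31. For the 20 named positions 290 of 296 refits kept the call, the others being at 464, 546 and 278. Positions called higher were 9 without centring, 72 with quantile normalization, 219 with a pseudocount of 0.01 and 59 with a minimum of 0.01, and 425 were lower without centring. A fitted alone gave 151 calls, 50 higher and 101 lower, and C alone 195, 60 and 135. Windows called higher were 0 without centring (20 lower), 5 with quantile normalization, 3 with a minimum of 0.01 and 5 with C alone. Windows of 100 nt gave 10 calls, 4 higher and 6 lower, and windows of 25 nt gave 35, with 22 lower. Folding with a window of 150 gave a rho of 0.183 in wild type against 0.320 in the knockout, and in the knockout A alone gave 0.224 and C alone 0.297. Leaving out each library in turn gave 297 to 367 called positions, 17 to 20 windows and 15 to 17 windows of A and C minus G and T. G and T positions called lower ranged from 16 to 36, the 16 without wild-type replicate 1. With the replicate number as a block, 374 positions (123 higher, 251 lower) and 20 windows were called, and 41 G and T positions were lower. Without read counts, what depth limits is unknown.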
